A study of Mus musculus with 7 samples.

Results

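*Pappa* and 9 genes of the insulin-like growth factor (IGF) axis were examined in RNA-seq libraries from mouse cervical spinal cord. The 10 genes are the protease *Pappa*, its inhibitor *Stc2*, the ligands *Igf1* and *Igf2*, the receptor *Igf1r*, and the binding proteins *Igfbp2*, *Igfbp3*, *Igfbp4*, *Igfbp5* and *Igfbp7*. They were found by GENCODE M21 symbol among the 55487 genes of the count table, and all 10 passed the filter on low counts, as did 18449 genes in all. *Pappa* was selected on its values in the genotype contrast of these same libraries, since the study lists it among its changed genes. Its contrast is therefore given as a description, with no p-value. The other 9 genes were chosen by their roles, with earlier results of these data known.

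IGF ligands act through a receptor tyrosine kinase, the IGF1 receptor, which signals through PI3K and AKT to growth and survival. Most extracellular IGF is held by binding proteins, which keep it from the receptor. Pregnancy-associated plasma protein A, encoded by *Pappa*, is a secreted metalloprotease that cleaves IGFBP4 and IGFBP5 and so frees the ligand, and stanniocalcin 2 blocks it. In the nervous system, IGF1 is known as a survival factor for motor neurons, and IGF2 is made mainly in the meninges and choroid plexus.

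The libraries came from 4 *Neat1*-KO; hSOD1G93A mice (replicates 1 to 4) and 3 *Neat1*-WT; hSOD1G93A mice (replicates 2 to 4), all 8 weeks of age. *Neat1* encodes a long non-coding RNA that builds nuclear paraspeckles, and the KO mice carry the *Neat1*-/- genotype in every tissue. Both groups carry the hSOD1G93A transgene, a mutant human *SOD1* that causes motor neuron disease, so neither is a healthy control. The comparison asks how the spinal cord transcriptome differs when *Neat1* is missing in this disease model. Below, the groups are called *Neat1*-KO and *Neat1*-WT, and where values of single libraries are listed they run from replicate 1 to replicate 4 and from replicate 2 to replicate 4, respectively.

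Total counts ranged from 19661878 to 26031517 per library, and mitochondrial genes held 3.69% to 5.24% of them. *Neat1* had 99 to 134 counts in the *Neat1*-KO and 1725 to 2323 in the *Neat1*-WT libraries, as the labels state. *Hox* genes of the cervical cord summed to 393 to 508 CPM (counts scaled to the size of the library), whereas the forebrain genes *Emx1* and *Tbr1* had at most 6 counts in any library. All 7 libraries had 1047 to 1880 counts of the Y-linked *Ddx3y* and at most 4 of *Xist*. By these counts all 7 mice were male, whereas the study describes both sexes in its experiments. *Neat1*-KO replicate 1 stood furthest from its group, with a chi-square per gene of 14.6 to 18.0 against the other *Neat1*-KO libraries, which differed among themselves by 8.11 to 13.6.

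The coding sequence of the catalytic site is shown for *Pappa* and for its paralogue *Pappa2*. It marks the protease among the members and shows how far the paralogues differ at this site. Sequences are from the GRCm38 (mm10) assembly, read 5′ to 3′ along the coding strand, and the capitals mark the codons of the zinc-binding histidines and of the catalytic glutamate.

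Pappa: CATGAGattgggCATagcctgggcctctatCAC
Pappa2: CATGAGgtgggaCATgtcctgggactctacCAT

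The *Pappa* stretch lies at chr4:65180920-65180952 on the plus strand, in exon 4 of 22. The *Pappa2* stretch lies at chr1:158857336-158857368 on the minus strand, also in exon 4 of 22. They differ at 8 of 33 bases. No transcript of another gene matched *Pappa* at 90% identity over 50% of the shorter transcript, whereas *Igfbp4* was matched by *Gm47551*, a gene of 165 bp with 0 to 1 counts, and *Igf2* by *Gm49394*, described with it. Reads that match *Igfbp4* and *Gm47551* equally well may be missing from counts of uniquely mapped reads. *Gm49394* overlaps *Igf2* at the same place in the genome, so there the question is to which gene a read was assigned.

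*Pappa* (ENSMUSG00000028370; chr4:65124174-65357509, plus strand) had lower counts in every *Neat1*-KO library than in any *Neat1*-WT library. The *Neat1*-KO libraries held 7.50, 7.62, 10.3 and 8.77 CPM, and the *Neat1*-WT libraries 14.1, 11.8 and 13.4 CPM. The highest *Neat1*-KO library, replicate 3, stayed below the lowest *Neat1*-WT library, replicate 3. The *Neat1*-KO mean was 8.55 ± 1.30 CPM (SD, n = 4), from 146 to 230 counts per library. The *Neat1*-WT mean was 13.1 ± 1.19 CPM (SD, n = 3), from 252 to 311 counts per library. The log2 fold change of *Neat1*-KO against *Neat1*-WT was -0.61 with a standard error of 0.14, a fold of 0.654. This stood just past the fold minimum of 0.58 on the log2 scale that the study applied, and the member nearest on the other side was *Stc2* at -0.24. It was largest without *Neat1*-KO replicate 3, at -0.71, and smallest in the leave-one-out fits without *Neat1*-WT replicate 2, at -0.56.

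The summed motor neuron markers separated the genotypes in the same direction as *Pappa*, whereas each marker taken singly overlapped between them. The sums of all other marker lists overlapped between the genotypes, and the separation by the motor neuron sum was not tested. The 7 markers *Chat*, *Slc18a3*, *Slc5a7*, *Mnx1*, *Isl1*, *Isl2* and *Prph* summed to 281 to 341 CPM in *Neat1*-KO and 363 to 432 CPM in *Neat1*-WT, and none was at 0 in any library. All 7 had negative log2 fold changes, with a median of -0.30 against 0.01 over all genes tested. None was called by edgeR, where the smallest Benjamini-Hochberg adjusted p was 0.840, and 3 had an unadjusted p under 0.05, which 4.64% of all genes had. Other lists also leaned in 1 direction. The 6 oligodendrocyte markers all had negative log2 fold changes (median -0.14), with 1 gene without overlap, and the 7 microglial markers all had positive ones (median 0.04). Of 6 general neuronal markers 4 were positive, 2 of them without overlap, and 5.47% of all genes were without overlap. An unadjusted p under 0.05 (edgeR) was found for 2 neuronal, 1 oligodendrocyte and 0 microglial markers. None of these markers was called. The part of these markers in the *Pappa* difference was not tested. In bulk tissue, fewer cells of a type and less RNA per cell cannot be told apart.

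*Pappa* has a single annotated transcript of 11027 bp, and libraries differed in how counts varied with transcript length. Among the 835 genes whose longest transcript exceeds 8000 bp, the median log2 deviation from the mean over libraries ran from -0.17 in *Neat1*-KO replicate 1 to 0.12 in *Neat1*-WT replicate 4. Each genotype had libraries on both sides of 0, and the median log2 fold change of these long genes was -0.03. With the length trend of each library taken into the model, the log2 fold change of *Pappa* was -0.58.

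**Figure D1:**
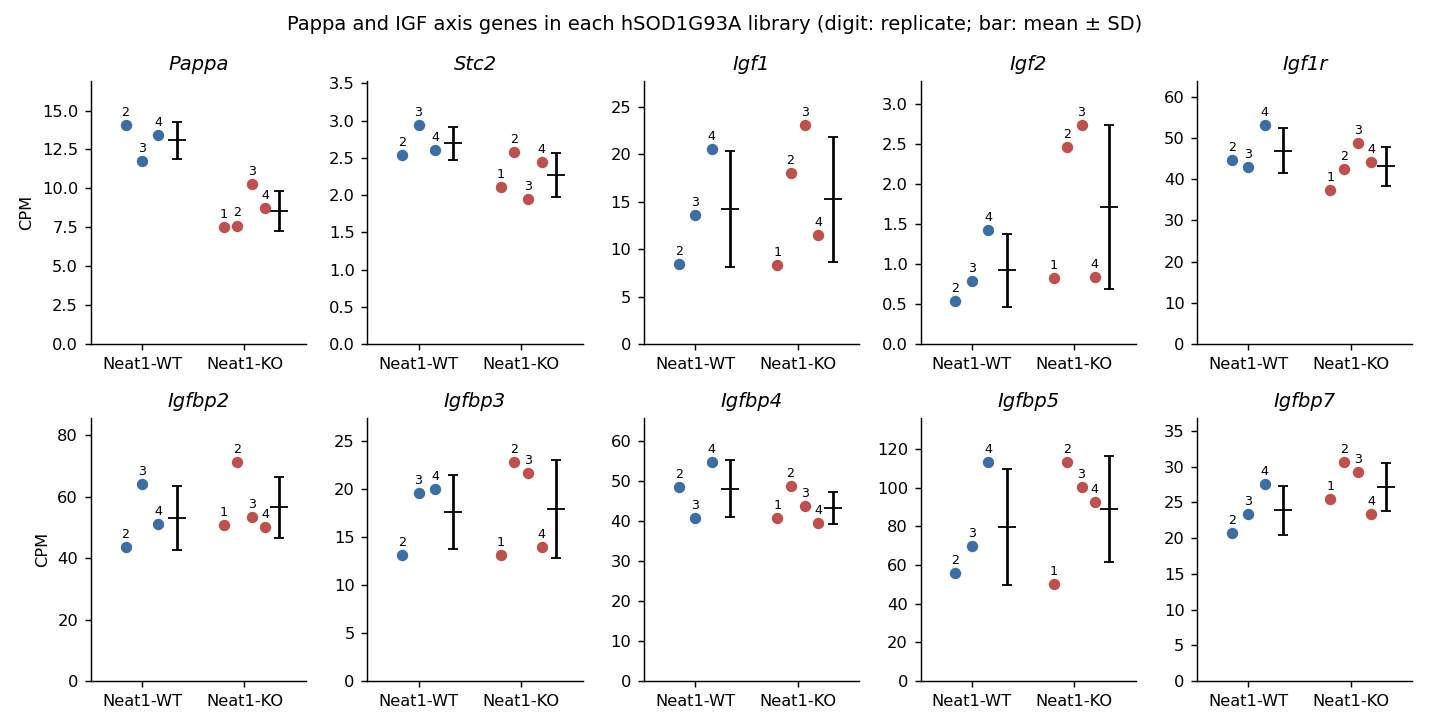
CPM (vertical axis, from 0) of the 10 genes in each library, with *Neat1*-WT in blue and *Neat1*-KO in red, a digit for the replicate, and black bars for the mean ± SD of each group (n = 3 and n = 4). *Pappa* is the 1 gene in which the groups do not overlap, with *Neat1*-KO at 7.50 to 10.3 CPM and *Neat1*-WT at 11.8 to 14.1 CPM.

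*Stc2* (ENSMUSG00000020303; chr11:31357307-31370074, minus strand), which encodes the inhibitor, was low in all libraries. Its level was 2.11, 2.58, 1.95 and 2.44 CPM in the *Neat1*-KO libraries, against 2.53, 2.94 and 2.60 CPM in the *Neat1*-WT libraries. *Neat1*-KO replicate 2 lay above *Neat1*-WT replicate 2, so the groups overlapped. The log2 fold change was -0.24 with a standard error of 0.21, from 41 to 64 counts per library, and the edgeR adjusted p was 0.992.

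The ligand *Igf1* (ENSMUSG00000020053; chr10:87858265-87937042, plus strand) varied 2.76-fold among the libraries, and this spread crossed the genotypes. The *Neat1*-KO libraries held 8.37, 18.1, 23.1 and 11.5 CPM, and the *Neat1*-WT libraries 8.42, 13.6 and 20.6 CPM. Each group held a library near 8 CPM and another above 20 CPM. The log2 fold change was 0.11 with a standard error of 0.32 (edgeR, adjusted p = 0.996).

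*Igf2* (ENSMUSG00000048583; chr7:142650766-142666816, minus strand) was the least abundant member and the most variable, with a 5.04-fold range. Its level was 0.822, 2.46, 2.74 and 0.839 CPM in the *Neat1*-KO libraries, against 0.543, 0.794 and 1.43 CPM in the *Neat1*-WT libraries. *Neat1*-KO replicates 2 and 3 were the highest, while replicates 1 and 4 lay within the *Neat1*-WT range. Its log2 fold change of 0.91 was the largest in size among the members, but its standard error was 0.49 and it was not called (edgeR, adjusted p = 0.992). It rested on 12 to 61 counts per library. The *Igf2* counts are uncertain, because *Gm49394* shares 3596 bp (62.8%) of its merged exons on the same strand and had 0 to 6 counts. Reads that fall on both genes may have been left out of the counting, and the setting is not given in the sources used here.

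The receptor *Igf1r* (ENSMUSG00000005533; chr7:67952827-68233668, plus strand) was steady across libraries. Levels of 37.3, 42.4, 48.8 and 44.1 CPM were measured in the *Neat1*-KO libraries, and of 44.5, 43.0 and 53.1 CPM in the *Neat1*-WT libraries. *Neat1*-KO replicate 1 was the lowest and *Neat1*-WT replicate 4 the highest, and the other libraries were mixed between the genotypes. The log2 fold change was -0.12 with a standard error of 0.11 (edgeR, adjusted p = 0.992).

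Of the binding proteins, *Igfbp4* and *Igfbp5* encode substrates of the protease. *Igfbp4* (ENSMUSG00000017493; chr11:99041244-99054392, plus strand) was at 40.8, 48.8, 43.8 and 39.6 CPM in the *Neat1*-KO libraries, against 48.6, 40.7 and 54.9 CPM in the *Neat1*-WT libraries. The groups overlapped, and its log2 fold change was -0.15 with a standard error of 0.11. *Igfbp5* (ENSMUSG00000026185; chr1:72857932-72874884, minus strand) was at 49.99, 113, 100.5 and 92.6 CPM in the *Neat1*-KO libraries, against 55.7, 69.8 and 113 CPM in the *Neat1*-WT libraries. Its lowest and highest libraries were both *Neat1*-KO, replicates 1 and 2, and the log2 fold change was 0.17 with a standard error of 0.25. Both genes had an edgeR adjusted p of 0.992.

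*Igfbp2* (ENSMUSG00000039323; chr1:72824503-72852474, plus strand), which is a neighbour of *Igfbp5* on chromosome 1, was at 50.9, 71.4, 53.4 and 50.3 CPM in the *Neat1*-KO libraries. Its *Neat1*-WT libraries held 43.7, 64.2 and 51.2 CPM. The highest library of each group, *Neat1*-KO replicate 2 and *Neat1*-WT replicate 3, stood above all others. *Igfbp3* (ENSMUSG00000020427; chr11:7206086-7213923, minus strand), the main carrier of IGF in serum, was at 13.2, 22.9, 21.7 and 14.0 CPM in the *Neat1*-KO libraries, against 13.2, 19.66 and 19.98 CPM in the *Neat1*-WT libraries. *Igfbp7* (ENSMUSG00000036256; chr5:77349240-77408041, minus strand), a matrix protein that binds IGF weakly, was at 25.5, 30.7, 29.2 and 23.4 CPM, against 20.7, 23.4 and 27.6 CPM. In all of these genes the groups overlapped. The log2 fold changes were 0.09 for *Igfbp2* (standard error 0.14), 0.03 for *Igfbp3* (standard error 0.20) and 0.19 for *Igfbp7* (standard error 0.12), with edgeR adjusted p of 0.992, 0.997 and 0.992.

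Counted together, 4 of the 10 members had a negative and 6 a positive log2 fold change, with a median of 0.06. Over all 18449 genes tested, 8888 were negative and 9561 positive, with a median of 0.01. A gene was called where the edgeR adjusted p was under 0.1 and the log2 fold change exceeded 0.58 in size, which 6 genes (0.0325%) passed. No member was called. The DESeq2 Wald test at the same thresholds called 27 of the 14505 genes that received an adjusted p (0.186%), of which *Pappa* was the 1 member. *Stc2* and *Igf2* received none there and could not be called. By limma-voom no member was called. Groups without overlap were seen in 1 member, again *Pappa*, and in 5.47% of all genes. Since *Pappa* was chosen by this contrast, nothing is read from its part in these counts. None of the other 9 members had an unadjusted p under 0.05 or groups without overlap.

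**Figure D2:**
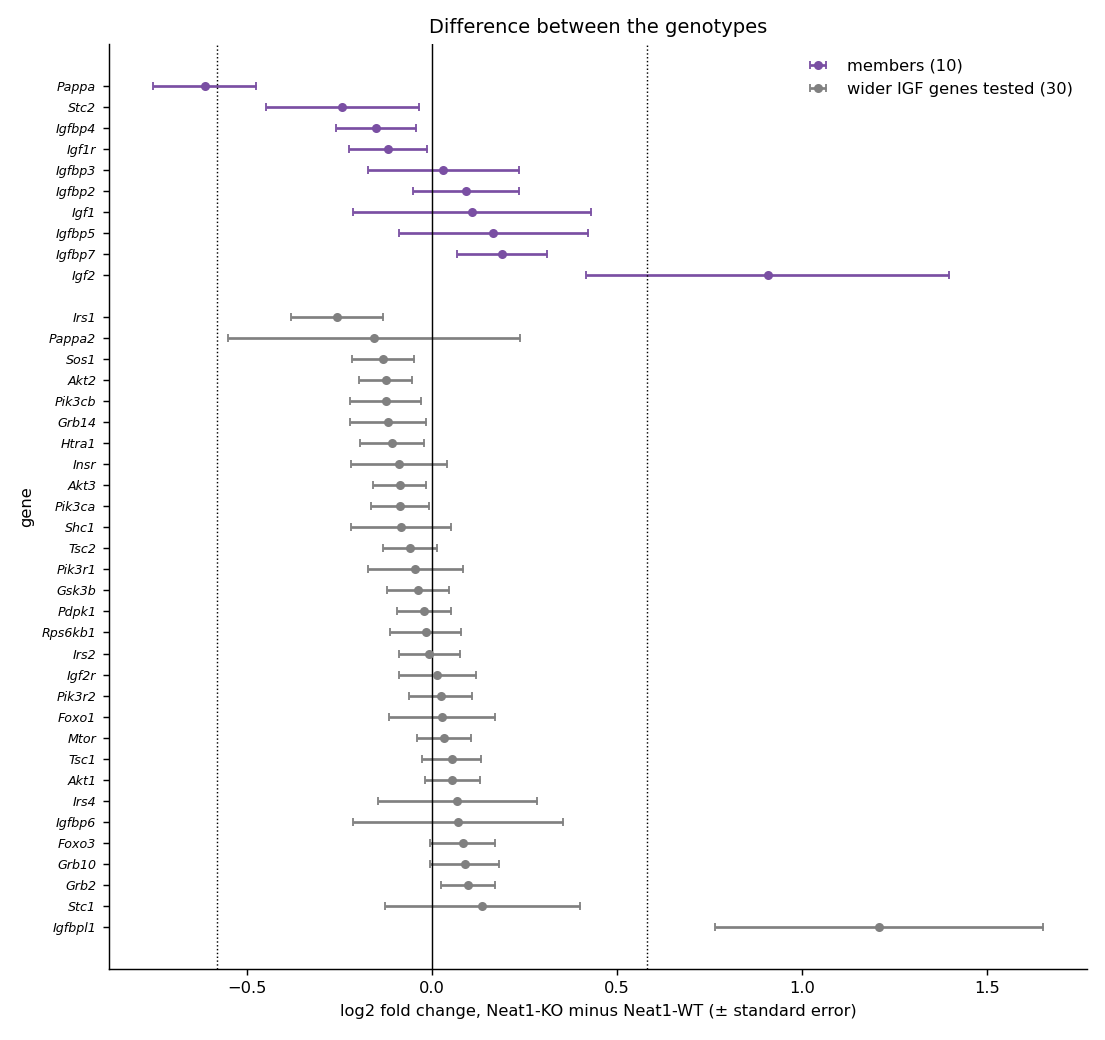
Log2 fold change of *Neat1*-KO against *Neat1*-WT (horizontal axis) with its standard error, for the 10 members (purple) and the 30 tested genes of the wider IGF list (grey), and dotted lines at 0.58 on either side of 0. *Pappa* at -0.61, *Igf2* at 0.91 and *Igfbpl1* at 1.21 lie outside the dotted lines, and none of the 3 was called by edgeR.

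A wider list of 34 IGF genes that are no members gave 30 tested genes, of which 17 had a negative and 13 a positive log2 fold change, with a median of -0.02. *Prg2*, *Igfbp1*, *Igfals* and *Insrr* had too few counts to be tested. None of the 30 was called by edgeR or limma-voom, nor by DESeq2, where 3 of them received no adjusted p. An unadjusted p under 0.05 was found for 1 gene and groups without overlap for 2 genes, beside 4.64% and 5.47% of all genes. In each role, the genes with the lowest and the highest log2 fold change are described, and all of them had an edgeR adjusted p between 0.992 and 0.997.

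Among the proteases and their inhibitors, *Pappa2*, the paralogue of *Pappa* that cleaves IGFBP3 and IGFBP5, had 0.411 to 1.39 CPM and a log2 fold change of -0.16 with a standard error of 0.39. *Stc1*, the paralogue of *Stc2*, had 1.63 to 2.94 CPM and a log2 fold change of 0.14 with a standard error of 0.26. *Pappa2* was so low that its 8 to 34 counts per library give little precision.

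Among the binding proteins, *Igfbp6*, which prefers IGF2, was at 0.07 with a standard error of 0.28. *Igfbpl1*, a binding protein-like gene, was at 1.95, 2.02, 1.07 and 1.07 CPM in the *Neat1*-KO libraries, against 0.226, 0.840 and 0.918 CPM in the *Neat1*-WT libraries. Every *Neat1*-KO library was above every *Neat1*-WT library. The log2 fold change was 1.21 with a standard error of 0.44, from 5 to 50 counts per library, and the edgeR adjusted p was 0.992.

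The receptors *Insr*, for insulin, and *Igf2r*, which clears IGF2, had log2 fold changes of -0.09 (standard error 0.13) and 0.01 (standard error 0.10). Of the adaptors, *Irs1*, which links the activated receptor to PI3K, was at -0.26 (standard error 0.12) and *Grb2*, which links it to RAS, at 0.10 (standard error 0.07). Of the downstream signalling genes, *Akt2*, a kinase of the PI3K branch, was at -0.13 (standard error 0.07), with 61.5 to 63.1 CPM in *Neat1*-KO and 65.9 to 71.9 CPM in *Neat1*-WT and no overlap. *Foxo3*, a transcription factor that AKT keeps out of the nucleus, was at 0.08 (standard error 0.09).

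Levels between genes were compared as FPKM, here the CPM of a gene divided by the length of its merged exons in kilobases. The binding proteins stood above the rest, with means over the 7 libraries of 29.8 FPKM for *Igfbp2*, 21.3 for *Igfbp7*, 14.2 for *Igfbp5*, 10.3 for *Igfbp4* and 5.69 for *Igfbp3*. The receptor followed at 2.66 FPKM for *Igf1r*, and then came *Igf1* at 1.50, *Pappa* at 0.951, *Stc2* at 0.474 and *Igf2* at 0.240 FPKM. The value of *Igf2* may be too low. It divides by all merged exons, of which 62.8% are shared with *Gm49394* and may have lost reads. The mean of each binding protein was thus between 5.98 and 31.3 times that of the protease.

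The order was compared between neighbours within each library. *Igfbp2* was above *Igfbp7*, *Igfbp7* above *Igfbp5*, *Igfbp4* above *Igfbp3*, *Igfbp3* above *Igf1r*, *Igf1r* above *Igf1* and *Pappa* above *Stc2* in 7 of 7 libraries. The remaining neighbours changed places in some libraries and do not differ beyond their spread. *Igfbp5* was above *Igfbp4* in 5 of 7 libraries, the exceptions being *Neat1*-KO replicate 1 and *Neat1*-WT replicate 2. *Igf1* was above *Pappa* in 6 of 7 libraries, with *Neat1*-WT replicate 2 at 0.850 FPKM of *Igf1* and 1.28 FPKM of *Pappa*. *Stc2* was above *Igf2* in 6 of 7 libraries, all but *Neat1*-KO replicate 3. The order of the means kept all 10 places with the length of the longest transcript and with any 1 library left out. Neither change varies the counting of reads on the exons shared with *Gm49394*, so the last place of *Igf2* stays uncertain.

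**Figure D3:**
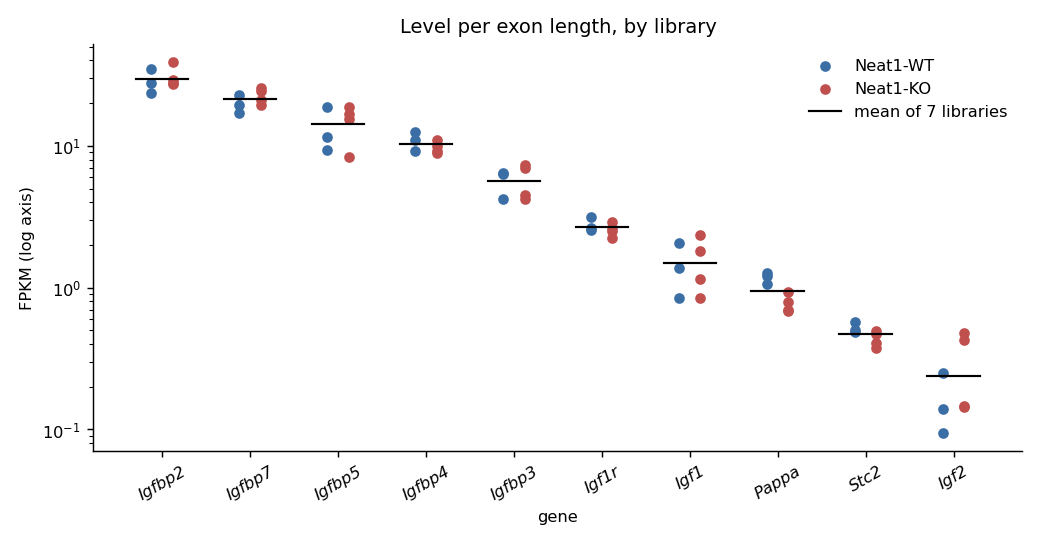
FPKM of the 10 genes (vertical log axis) in each library, with *Neat1*-WT in blue and *Neat1*-KO in red, and a black line at the mean of 7 libraries. The 5 binding proteins have means from 5.69 to 29.8 FPKM, and *Pappa* has a mean of 0.951 FPKM.

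The level of each other member relative to *Pappa* was taken within each library as the ratio of FPKM. These ratios contain the contrast that chose *Pappa* and are given as a description. The *Igf1r* to *Pappa* ratio was 3.33 ± 0.229 (SD, n = 4) in the knockout group against 2.36 ± 0.264 (SD, n = 3) in *Neat1*-WT. For the substrate *Igfbp4* it was 12.9 ± 2.45 (SD, n = 4) in the knockout group against 9.16 ± 0.915 (SD, n = 3) in *Neat1*-WT. For *Igfbp7* it was 29.5 ± 5.62 (SD, n = 4) in the knockout group against 16.8 ± 2.91 (SD, n = 3) in *Neat1*-WT. In these 3 of 9 ratios the groups did not overlap, beside 64.8% of all tested genes set against *Pappa* in the same way, and none of the 3 genes separated the groups by its own level. For the substrate *Igfbp5* it was 19.2 ± 6.23 (SD, n = 4) in the knockout group against 11.2 ± 4.14 (SD, n = 3) in *Neat1*-WT, and the groups overlapped. The inhibitor *Stc2* had 0.579 ± 0.131 (SD, n = 4) FPKM per FPKM of *Pappa* in the knockout group against 0.443 ± 0.0789 (SD, n = 3) in *Neat1*-WT, also with overlap. The ratios for *Igf1*, *Igf2*, *Igfbp2* and *Igfbp3* overlapped as well.

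*Igfbp5* varied over the libraries together with cell type markers. The meningeal markers, among them *Col1a1*, *Col1a2*, *Dcn* and *Aldh1a2*, summed over the list of 8 to 89.5, 248, 199.5 and 183 CPM in the *Neat1*-KO libraries, against 80.7, 132 and 256 CPM in the *Neat1*-WT libraries. This is a 3.18-fold range that overlapped between the genotypes. Of these markers, *Slc22a6* was at 0 in *Neat1*-KO replicate 1. *Igfbp5* was low in *Neat1*-KO replicate 1 and *Neat1*-WT replicate 2, where the meningeal sum was lowest, and it reached 113 CPM in both libraries with the highest sum, *Neat1*-KO replicate 2 and *Neat1*-WT replicate 4.

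The 10 members were compared with 8 marker lists, which gave 80 relations over 7 libraries, each tested two-sided by an exact permutation over 5040 pairings. Pearson's r was taken between the log2 CPM of the member and the log2 of the summed CPM of the list. This comparison was added after the data were seen. *Igfbp5* followed the summed meningeal markers with a Pearson r of 0.986 (exact permutation p = 0.00119, adjusted 0.0476) and a Spearman rho of 0.929 (exact permutation p = 0.00675, adjusted 0.108). Without the 2 libraries farthest from the median of the marker sum r was 0.991, and with the mean of each genotype taken away it was 0.986. *Igfbp5* also followed the 7 microglial markers, which summed to 139 to 209 CPM, with r = 0.983 (exact permutation p = 0.0002, adjusted 0.0159) and rho = 1.0 (exact permutation p = 0.0004, adjusted 0.0318). Here r was 0.996 without the 2 farthest libraries and 0.983 with genotype means taken away. These were the 2 relations with an adjusted p of r under 0.05. The microglial, meningeal and astrocyte sums were all lowest in *Neat1*-KO replicate 1 and *Neat1*-WT replicate 2. Relations with these lists are therefore not separate from each other. With the 6 astrocyte markers, which summed to 3070 to 4383 CPM, *Igfbp5* had r = 0.947 (exact permutation p = 0.00218, adjusted 0.0582) and rho = 0.964 (exact permutation p = 0.00278, adjusted 0.0741), and r was 0.964 without the 2 farthest libraries. No other binding protein had a relation with the astrocyte markers at an adjusted p under 0.05. *Igfbp3* had the same rho as *Igfbp5*, 0.964 (exact permutation p = 0.00278, adjusted 0.0741). Its r was 0.879 (exact permutation p = 0.0272, adjusted 0.229), and 0.753 without the 2 farthest libraries. *Igfbp7* had r = 0.824 (exact permutation p = 0.0308, adjusted 0.229), and r was 0.571 without the 2 farthest libraries. The r was lower for *Igfbp2*, at 0.551 (exact permutation p = 0.219, adjusted 0.439), and for *Igfbp4*, at 0.504 (exact permutation p = 0.236, adjusted 0.460).

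For *Igf1*, r with the meningeal sum was 0.883 (exact permutation p = 0.0131, adjusted 0.131) and rho was 0.821 (exact permutation p = 0.0341, adjusted 0.228). Without the 2 farthest libraries r was 0.602. For *Igf2*, r was 0.781 (exact permutation p = 0.0462, adjusted 0.284) and rho 0.821 (exact permutation p = 0.0341, adjusted 0.228), with r = 0.650 without the 2 farthest libraries. With the microglial markers, r was 0.888 for *Igf1* (exact permutation p = 0.0109, adjusted 0.125), with rho = 0.821 (exact permutation p = 0.0341, adjusted 0.228), and r was 0.606 without the 2 farthest libraries. The same relation gave *Igf2* an r of 0.765 (exact permutation p = 0.0571, adjusted 0.284) and a rho of 0.786 (exact permutation p = 0.0480, adjusted 0.256), and r was 0.740 without the 2 farthest libraries. With the astrocyte markers, *Igf1* had r = 0.924 (exact permutation p = 0.00774, adjusted 0.125) and rho = 0.857 (exact permutation p = 0.0238, adjusted 0.228), and r was 0.960 without the 2 farthest libraries. *Igf2* had r = 0.899 with these markers (exact permutation p = 0.0101, adjusted 0.125) and rho = 0.857 (exact permutation p = 0.0238, adjusted 0.228), and r was 0.828 without the 2 farthest libraries. None of these relations of the ligands passed the correction. Of the choroid plexus markers, *Ttr* had 0 to 3 counts, *Folr1* had 1 to 12 and *Kl* had 65 to 136, and their part in the *Igf2* counts was not tested. No pooled relation with a marker sum is given for *Pappa*, because its libraries fall into separate groups by genotype.

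**Figure D4:**
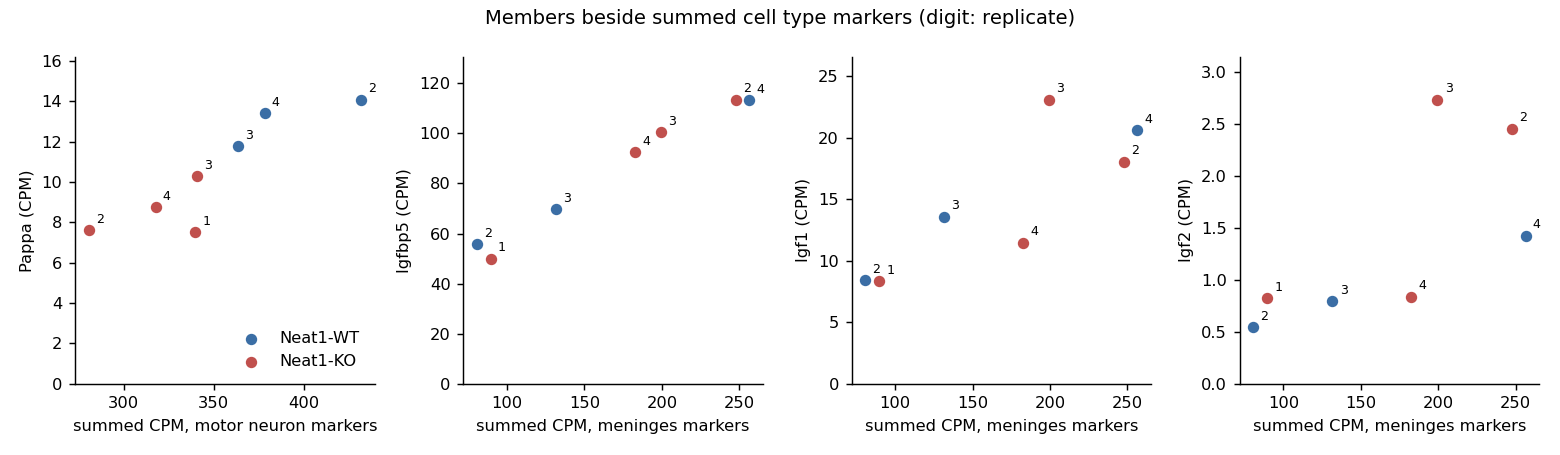
Each panel plots 1 member (CPM, vertical axis from 0) against the summed CPM of a marker list (horizontal axis) in the 7 libraries, with *Neat1*-WT in blue, *Neat1*-KO in red and a digit for the replicate. The axes are linear, whereas r in the text was taken on log2 values. *Pappa* and the motor neuron sum are both lower in every *Neat1*-KO library, whereas *Igfbp5*, *Igf1* and *Igf2* are spread along the meningeal sum with the genotypes mixed. No other marker list had a sum that separated the genotypes.

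Genes with the pattern most like that of *Pappa* were sought among 12841 tested genes with a mean of at least 5 CPM, by Pearson's r of log2 CPM over the 7 libraries. The 5 highest were *Ica1l* at 0.990, *Tmem74* at 0.982, *Bcl2* at 0.980, *Ncoa7* at 0.973 and *Gm37376* at 0.970. Their log2 fold changes between the genotypes were all negative, from -0.18 for *Bcl2* to -0.54 for *Gm37376*. This direction follows from the choice, because the difference between the genotypes was left in the ranking, and nothing is read from it. With genotype means taken away the 5 highest were *Ogt* at 0.998, *Ralgapa1* at 0.995, *Ftx* at 0.995, *Rps6ka3* at 0.994 and *Rgs17* at 0.991. None of these was among the first 5, and their log2 fold changes lay between -0.12 for *Rps6ka3* and 0.01 for *Ftx*. These genes were picked for their r over 7 libraries, and the values are descriptions without a test.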

How the data were processed

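RNA from cervical spinal cords of 4 *Neat1*-KO; hSOD1G93A and 3 *Neat1*-WT; hSOD1G93A mice was measured as 1 library per mouse, grouped by the sample labels. Directional poly(A) libraries were read as paired ends. Reads were trimmed with Trimmomatic 0.38 and aligned with HISAT2 2.1.0, and the authors deposited raw counts per Ensembl gene from featureCounts 1.6.3, which took uniquely mapped reads. The submitters' processing notes name mm10. The annotation release and strand setting are not given in the sources used here, so for *Igfbp7*, which shares 85 bp with *Polr2b* on the opposite strand, some reads may belong to either gene. Names and positions were those of GENCODE M21 (GRCm38). Of 55487 genes 55227 had a name there, and the rest hold 0.00446% of the counts.

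Counts were filtered by filterByExpr, normalized by TMM (factors 0.991 to 1.008) and tested in edgeR 4.0.16 by quasi-likelihood (R 4.3.3), with Benjamini-Hochberg adjustment over 18449 genes. The biological coefficient of variation was 0.128. CPM use the total count of a library times its TMM factor, and FPKM are CPM per kilobase of merged exon. Of the lists, 1 IGF gene and 1 marker are not reported here. The members and lists were chosen with earlier results of these data known. The genes named were the 10 members, in each role of the wider list the lowest and highest log2 fold change, and the 5 genes most like *Pappa* by either measure. *Akt2* and *Igfbpl1* are also the 2 genes of that list without overlap between groups. Copies were searched for with BLAST 2.17.0, and the scripts were tested on simulated data. The alternatives were other normalization factors (median-of-ratios, upper-quartile), no filter, a filter of 0.5 CPM in 1 library, DESeq2 1.42.0, limma-voom (limma 3.58.1), a block for the replicate number, robust dispersion, a covariate from *Xist*, other thresholds, each library left out in turn and, added after seeing the data, a correction for transcript length.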

Additional observations from a re-analysis of the deposited data

Results flagged for a closer look

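Among the 4 *Neat1*-KO libraries, 2 of 40 genes examined had 1 library far from the others, with Dixon's ratio, the gap to the nearest library divided by the whole range, above its 95% critical value. Chance alone gives about 2 in 40. *Igfbp2* in *Neat1*-KO replicate 2 had a ratio of 0.852, with 71.4 CPM against 50.3 to 53.4 CPM in the others. *Stc1*, also in replicate 2, had a ratio of 0.886, with 2.94 CPM against 1.72 to 1.86 CPM. The *Neat1*-WT group has 3 libraries and was not examined in this way.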

How the results depend on the processing

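The count of members called was 0, and it was 1 (*Pappa*) with no filter and 1 (*Pappa*) with the DESeq2 Wald test. The cause was not tested. It stayed 0 in the other alternatives and with any 1 library left out, as did the count for the wider list in every alternative. Of all genes, 6 were called, against 124 of 30996 with no filter, 27 with DESeq2, 39 with the replicate block, and, with 1 library left out, 31 (*Neat1*-KO replicate 1), 11 (*Neat1*-WT replicate 4) and 3 (*Neat1*-WT replicate 3). *Pappa* was chosen by this contrast and its groups do not overlap, so leaving out a library could not turn its sign, and the range is a description. The log2 fold change of *Pappa* was negative in all 17 alternatives, from -0.71 to -0.47, and from -0.71 to -0.56 with 1 library left out. The value nearest 0 came with *Xist* as a covariate, whose counts of 0 to 4 carry little but counting noise. With the replicate block it was -0.56. Same-numbered libraries did not deviate together (correlations of -0.36, -0.28 and -0.06 for numbers 2, 3 and 4), so the numbers were not taken as pairs. Not called in any alternative, *Igf1* changed sign in 2 of 17, *Igfbp2* in 3, *Igfbp3* in 4 and *Igfbp5* in 1, and *Igf2* ranged from 0.47 to 1.35. Depth limits *Stc2*, *Igf2*, *Pappa2* and *Igfbpl1*, which have at most 64 counts in any library.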
